A study of Mus musculus with 4 samples.

Results

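The genes described here are 10 signalling genes of blood vessels, chosen by name from the 32285 genes measured: the ligands Vegfa, Vegfc, Pgf, Angpt1, Angpt2 and Apln, and the receptors Kdr, Flt1, Tek and Aplnr. All 10 were found in the gene list of every library. Single-cell RNA libraries had been prepared with 10x Chromium 3′ v3 chemistry from mouse digits cut through the middle phalanx (P2), a level that scars and does not regenerate, and from uncut digits. Tissue of wild-type FVB/NJ mice, 8 weeks old per the labels, was digested, and live cells were sorted. The groups were 1 unamputated library and 1 library each at 12, 17 and 28 days post-amputation (dpa). The labels name no further allele or agent, and describe each library as pooled from males and females.

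VEGF-A is the main growth factor of blood vessels and acts on endothelial cells through Kdr (VEGFR2), while Flt1 (VEGFR1) binds VEGF-A and placental growth factor (Pgf) and limits signalling through Kdr. VEGF-C drives lymphatic growth and can also act through Kdr. Angiopoietin-1 from cells around the vessel activates the endothelial receptor Tek (Tie2) and stabilises vessels, angiopoietin-2 can oppose it, and apelin (Apln) is a peptide that signals through the G protein-coupled receptor Aplnr in endothelium.

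The libraries held 8813 to 16045 barcodes and 92313847 to 197140774 unique molecular identifiers (UMIs), and 6496 to 10442 cells a library were kept. Median UMIs per kept cell were 11636 in the unamputated library and 9543, 8511 and 6661 at 12, 17 and 28 dpa. Against the label of pooled sexes, 54.2% of cells at 12 dpa were called female by Xist and Y-linked genes and 0 male, while the other libraries held 77.9%, 58.4% and 47.2% male cells and at most 1 female cell. The 12 dpa comparison is therefore also one of sex, and sex and time cannot be told apart there. Pairs of libraries shared 19 to 87 barcodes, at most 0.570% of the smaller library. With 1 library a group, no test was possible and no difference has a replicate check: intervals given below are 95% intervals of counting error alone, exact Poisson for levels and exact Clopper-Pearson for shares and, through the split of UMIs between 2 libraries or genes, for ratios.

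Levels are CPM: the UMIs of a gene divided by all UMIs of a cell class in 1 library, times 1000000. Differences are log2 ratios to the unamputated library after adding 1 CPM. A gene was counted as past 2-fold when this ratio was at least 1 in size and the higher library had at least 5 CPM. Classes were named from marker genes after clustering without the 10 genes, and a class was compared only where a library held at least 50 of its cells.

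Vascular endothelial-like cells numbered 1382, 749, 518 and 581 in the unamputated, 12, 17 and 28 dpa libraries, which was 13.2%, 11.5%, 6.53% and 5.71% of cells. Their 8 defining markers, such as Pecam1 and Cdh5, summed to 6100, 5717, 6187 and 6151 CPM, so the label held in each library. Markers of fibroblasts summed to 209, 998, 671 and 731 CPM in the same cells, against 46517 to 64101 CPM in fibroblast-like cells, and their part in the results was not tested. The vascular endothelial-like cells carried 95.1% to 98.8% of all Aplnr UMIs, 71.9% to 96.6% of those of Apln, 79.8% to 91.2% of those of Kdr, 60.2% to 91.4% of those of Tek and 59.5% to 79.2% of those of Flt1. Basal keratinocyte-like cells, which should lack these receptors, had at most 3.57 CPM of Flt1, 1.34 CPM of Kdr, 1.02 CPM of Tek and 0.610 CPM of Aplnr.

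**Figure D1:**
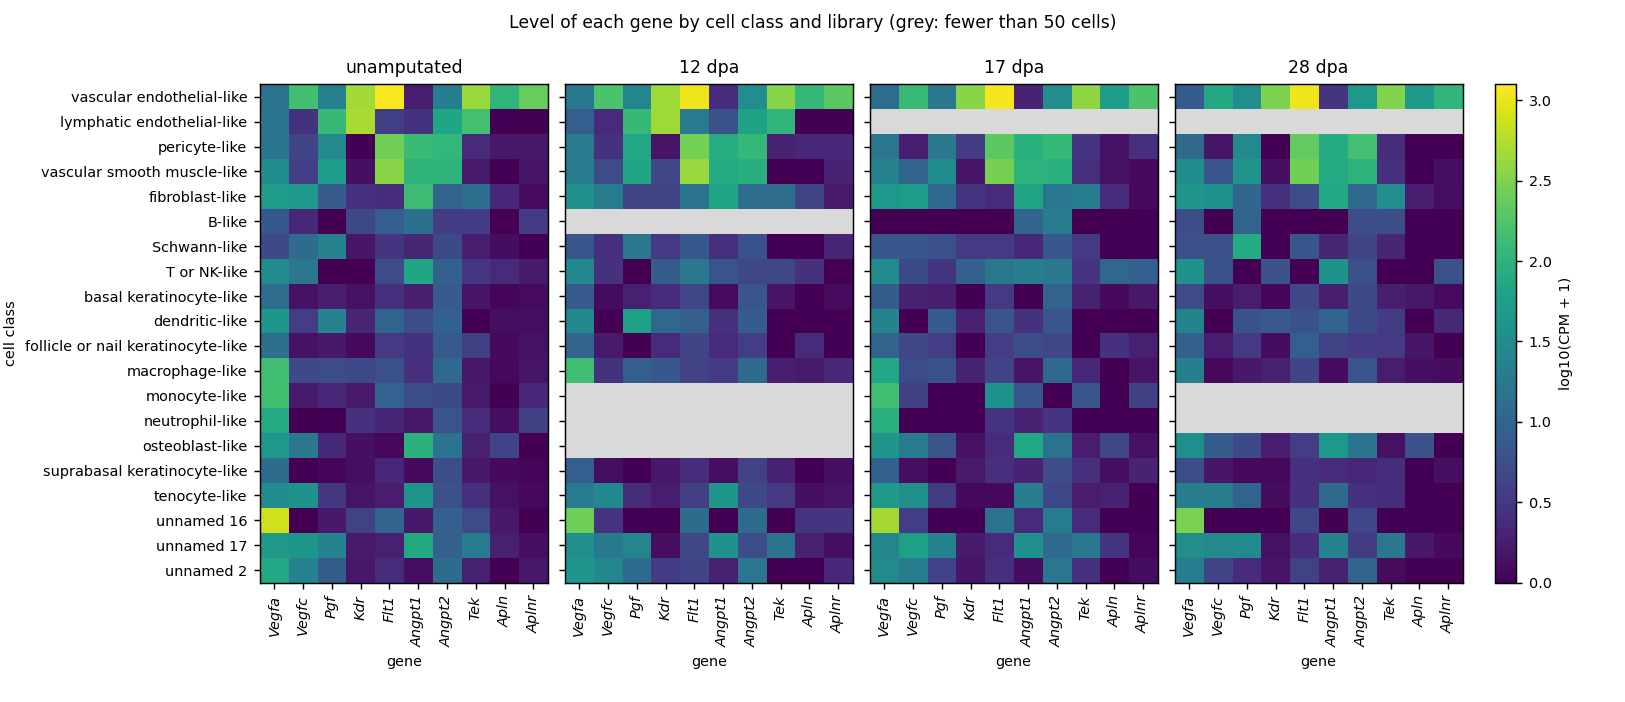
Level of each of the 10 genes (horizontal) in each cell class (vertical) of each library, as log10(CPM + 1) in colour, with grey where a library held fewer than 50 cells of a class. Kdr and Tek are brightest in the endothelial classes, Apln and Aplnr in the vascular endothelial class, Flt1 in the vascular endothelial and mural classes, Vegfa in cluster 16, Angpt1 in fibroblast-like and mural classes and Angpt2 in mural classes.

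The sequences just upstream of 4 of these endothelial genes are shown because their transcripts parted in the vascular endothelial-like class as a whole. Kdr and Apln were lower in it at 17 and 28 dpa by more than Flt1 and Tek were. The order of Kdr and Tek differed between the vessel subtypes compared below. The windows are the 250 bases before the RefSeq transcript start (GRCm38.p6), written 5′ to 3′ on the strand of the gene. Capitals mark the core GGAA, or TTCC on the opposite strand, that ETS factors, a family with members active in endothelium, bind.
Kdr, chr5:75978456-75978705, minus strand: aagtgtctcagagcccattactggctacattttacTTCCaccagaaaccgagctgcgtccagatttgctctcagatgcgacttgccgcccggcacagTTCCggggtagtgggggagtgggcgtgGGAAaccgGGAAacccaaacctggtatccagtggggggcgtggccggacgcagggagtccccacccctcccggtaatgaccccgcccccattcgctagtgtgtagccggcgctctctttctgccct
Apln, chrX:48034854-48035103, minus strand: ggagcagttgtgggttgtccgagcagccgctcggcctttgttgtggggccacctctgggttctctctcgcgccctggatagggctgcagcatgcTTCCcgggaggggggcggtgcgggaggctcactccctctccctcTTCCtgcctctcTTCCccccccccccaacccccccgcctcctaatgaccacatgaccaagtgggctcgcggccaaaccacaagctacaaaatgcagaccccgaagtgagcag
Flt1, chr5:147726012-147726261, minus strand: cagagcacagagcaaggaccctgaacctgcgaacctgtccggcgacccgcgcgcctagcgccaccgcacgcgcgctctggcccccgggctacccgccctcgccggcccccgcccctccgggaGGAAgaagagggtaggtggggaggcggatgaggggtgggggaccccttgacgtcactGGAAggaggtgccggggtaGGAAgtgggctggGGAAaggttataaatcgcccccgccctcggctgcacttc
Tek, chr4:94739039-94739288, plus strand: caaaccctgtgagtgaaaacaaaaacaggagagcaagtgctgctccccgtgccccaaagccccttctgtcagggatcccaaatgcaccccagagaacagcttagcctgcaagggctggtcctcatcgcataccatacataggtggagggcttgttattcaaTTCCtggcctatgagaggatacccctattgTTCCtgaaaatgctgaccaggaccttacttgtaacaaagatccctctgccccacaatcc
The core occurred 4 times in the windows of Kdr and Flt1, 3 times in that of Apln and 2 times in that of Tek. It was found in 93.5% of 32851 RefSeq promoter windows of the same length, with a median of 3 matches, so a match is common among promoters. Cores of hypoxia response elements, ACGTG or GCGTG on either strand, were present 2 times in the window of Kdr, 1 time in that of Flt1 and 0 times in those of Apln and Tek, and occurred in 38.6% of all windows. RefSeq windows were matched for 7 of the 10 genes.

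Across vascular endothelial-like cells, the apelin pair and Angpt2 differed most from the unamputated library, and did so at 28 dpa. Of the 9 genes with at least 5 CPM, 0 were past 2-fold at 12 dpa and 0 at 17 dpa, where 1.63% and 2.04% of all genes were. At 28 dpa 3 of the 9 were, where 6.16% of all genes were: Apln and Aplnr lower, Angpt2 higher. The median log2 ratio of the 9 genes was 0.15, -0.20 and -0.61 at 12, 17 and 28 dpa, and that of all genes -0.10, -0.06 and -0.10. Angpt1 was at 0.75 to 1.99 CPM in these cells and is not counted.

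Among the ligands made by endothelium, Apln (chrX:48025146-48034853, minus strand) was at 104 CPM in the unamputated library, 116 at 12 dpa, 54.0 at 17 dpa and 45.7 at 28 dpa. The late libraries stood below the early pair, with log2 ratios of -0.94 (-1.15 to -0.73) at 17 dpa and -1.17 (-1.43 to -0.93) at 28 dpa. After each cell was thinned to 2000 UMIs, 10.3%, 13.4%, 7.01% and 5.27% of cells had an Apln UMI, and without thinning 26.1%, 29.6%, 13.9% and 8.78%. Both sets of shares put the late libraries below the early pair, and the unthinned shares, which are not corrected for depth, differed more.

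Vegfc (chr8:54077606-54187096, plus strand) was at 143, 165, 124 and 73.1 CPM, again in time order, with a log2 ratio of -0.96 (-1.16 to -0.76) at 28 dpa, just short of 2-fold. Vegfa (chr17:46016993-46032369, minus strand) was low in these cells, at 13.5, 16.9, 12.1 and 6.95 CPM. Pgf (chr12:85166635-85177790, minus strand) was at 21.7, 25.2, 16.1 and 31.8 CPM, highest at 28 dpa with a log2 ratio of 0.53 (0.21 to 0.85). Angpt2 (chr8:18690263-18741562, minus strand) was at 20.5 CPM in the unamputated library and at 31.7, 33.4 and 43.7 CPM at 12, 17 and 28 dpa, so that it was highest at the time when Apln and Vegfc were lowest. Its log2 ratios were 0.61 (0.36 to 0.84), 0.68 (0.39 to 0.97) and 1.05 (0.76 to 1.34).

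Angpt2 is also a mural gene, and the mural marker sums in these cells were, like Angpt2, highest at 28 dpa. At 12 dpa, where Angpt2 was already higher, the smooth muscle sum was lower than in the unamputated library. Of the pericyte list 4 of 7 genes reached 5 CPM in these cells, and the list summed to 30.5, 32.7, 45.6 and 117 CPM. Of the smooth muscle list 3 of 6 did, with sums of 65.1, 49.6, 217.5 and 339 CPM, against 13160 to 15026 CPM in vascular smooth muscle-like cells, where Angpt2 itself was at 90.2 to 104 CPM. In the 296 to 870 endothelial cells a library with no UMI of 10 mural genes, a restriction chosen after seeing the data, the log2 ratios of Angpt2 were 0.82, 0.75 and 0.93. The value at 28 dpa was then under 2-fold, as it was at 0.65 with the stricter filter on cells and 0.72 with no doublets removed. A cell without such a UMI can still hold mural RNA, and the part of mural RNA in the Angpt2 values was not tested. The Angpt2 gene overlaps Mcph1 on the opposite strand, and the strand setting of the counting is not given in the sources used here.

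Of the receptors, Kdr (chr5:75932827-75978458, minus strand) was at 465, 453, 354 and 305 CPM, a stepwise order in which only the unamputated and 12 dpa levels did not differ beyond counting error. Its log2 ratios were -0.04 (-0.10 to 0.02), -0.39 (-0.48 to -0.31) and -0.61 (-0.71 to -0.51). Aplnr (chr2:85136225-85139923, plus strand) was at 236, 210, 169 and 110.2 CPM, with log2 ratios of -0.17 (-0.25 to -0.08), -0.47 (-0.59 to -0.35) and -1.09 (-1.25 to -0.93). Aplnr was thus lower at each later time, and its ligand Apln was not lower at 12 dpa.

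The other receptors differed less at 17 and 28 dpa. At 12 dpa Tek, with a log2 ratio of -0.30, differed more than Kdr and Aplnr, and Flt1, at -0.13, more than Kdr. Flt1 (chr5:147561604-147726011, minus strand), at 1157, 1057, 1130 and 1060 CPM, stayed within a log2 ratio of -0.13 at every time. Tek (chr4:94739289-94874976, plus strand) was at 432, 350.3, 382 and 329 CPM, with a log2 ratio of -0.39 (-0.49 to -0.30) at 28 dpa. The ratio of Flt1 to Kdr UMIs in the same cells was 2.49 (2.42 to 2.55), 2.34 (2.24 to 2.44), 3.19 (2.999 to 3.39) and 3.48 (3.23 to 3.75), a relation between 2 UMI counts and not between transcript numbers. In thinned cells, 53.0%, 52.9%, 42.1% and 40.9% had a Kdr UMI and 76.4%, 72.0%, 72.5% and 76.6% a Flt1 UMI, against at most 0.151% and 0.669% of basal keratinocyte-like cells, whose medians were 9871 to 17953 UMIs and those of the endothelial cells 4320 to 10834. Neutrophil-like cells should also lack Kdr, Tek and Aplnr. Of those in the unamputated library 0.973%, 0.243% and 0.973% had a UMI of these genes, and at 17 dpa 0 of 142 did.

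**Figure D2:**
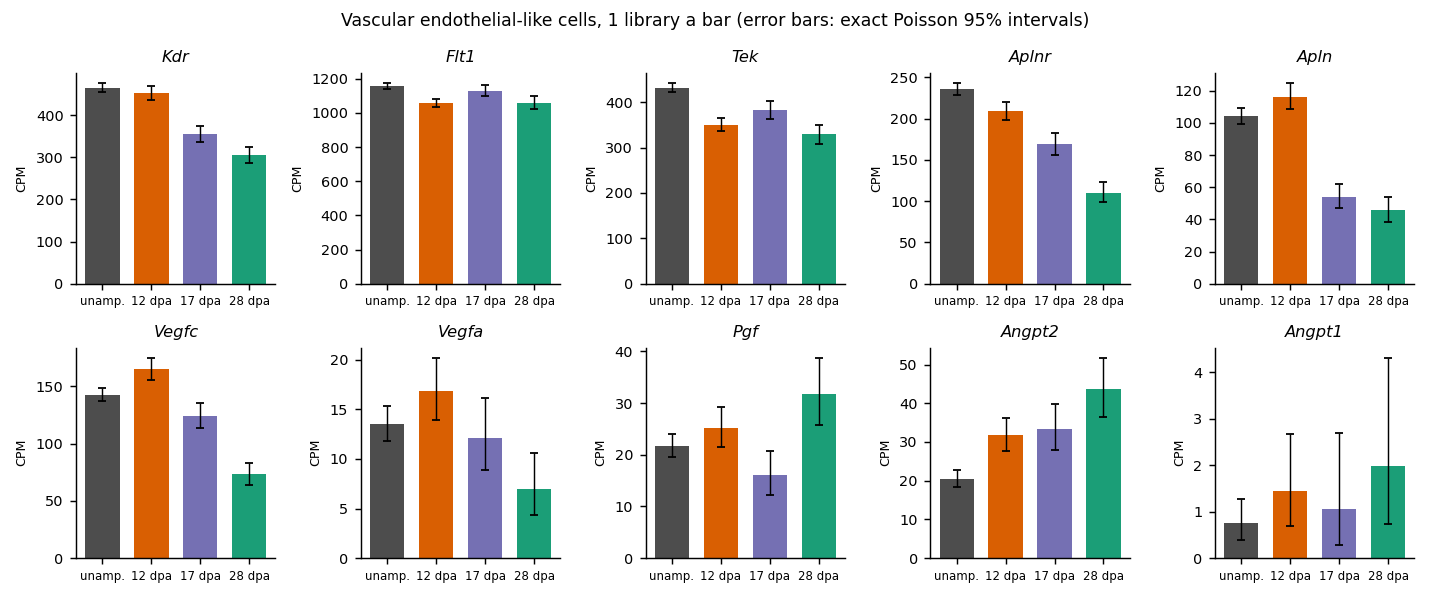
Level (CPM, vertical) of each gene in vascular endothelial-like cells, 1 bar a library, with exact Poisson 95% intervals. Kdr, Aplnr, Apln and Vegfc are lowest at 28 dpa, Angpt2 is highest there at 43.7 CPM, and Flt1 stays between 1057 and 1157 CPM.

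Subclusters of these cells, named from arterial, capillary and venular markers, were then compared, since the genes are not spread evenly along the vessel. Capillary endothelial-like cells were 35.8%, 45.5%, 32.6% and 33.6% of the vascular endothelial-like cells, venular ones 50.2%, 39.0%, 54.4% and 56.5%, and arterial ones 9.05%, 10.95%, 11.4% and 9.64%. Cycling cells numbered 68, 34, 8 and 2. The 28 dpa levels were then recomputed with each of the 3 subtypes at its unamputated share of UMIs. Kdr was at 464 CPM in the unamputated library and 303 CPM at 28 dpa on this footing, Apln at 99.99 and 52.2, Aplnr at 233 and 113, and Angpt2 at 21.1 and 41.2. At this fixed mix Aplnr was past 2-fold at 28 dpa, with a log2 ratio of -1.04, and Apln and Angpt2 were under it, with -0.92 and 0.93.

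Vegfc was highest in arterial cells. It was at 501, 467, 546 and 335 CPM in arterial endothelial-like cells, and at most 148 CPM in venular and 97.7 CPM in capillary ones. Venular levels were 115, 148, 68.5 and 46.8 CPM, a log2 ratio of -1.28 (-1.61 to -0.96) at 28 dpa. The capillary ratio was -1.09 (-1.61 to -0.60) and the arterial one -0.58 (-0.89 to -0.28), whose intervals overlapped each other. The venular and arterial intervals did not overlap. The makeup of the venular cells also differed: the subcluster with the most Vegfc held 202 of 694 venular cells in the unamputated library and 31 of 328 at 28 dpa. Within the 3 venular subclusters of over 20 cells, Vegfc was at 254, 85.2 and 63.6 CPM in the unamputated library and at 133, 48.5 and 33.2 CPM at 28 dpa. The venular ratio as a whole thus holds both lower levels within subclusters and another mix of them. Vegfa, too, was highest in arterial cells, at 55.3, 62.8, 49.9 and 36.5 CPM.

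Kdr differed most in arterial cells, those with the most Vegfc. In arterial endothelial-like cells, Kdr was at 460 CPM in the unamputated library, then 424, 222 and 143 CPM, with log2 ratios of -1.05 (-1.36 to -0.74) and -1.68 (-2.16 to -1.24) at 17 and 28 dpa. Only 59 and 56 arterial cells, with 98 and 43 Kdr UMIs, carry these late values, and 14% and 21.1% of all genes were past 2-fold in arterial cells at these times. Capillary levels were 553, 528, 460 and 336 CPM and venular levels 395, 346, 315 and 309 CPM, so that the venular ratio at 28 dpa, -0.35 (-0.49 to -0.22), lay outside the arterial and capillary intervals. Tek in arterial cells was at 398, 337, 408 and 411 CPM, and had a log2 ratio of 0.05 (-0.24 to 0.32) at 28 dpa. In capillary cells at 28 dpa the ratio was -0.36 (-0.54 to -0.18) for Tek and -0.72 (-0.89 to -0.55) for Kdr. Venular cells had the other order, with -0.54 (-0.67 to -0.42) for Tek against -0.35 for Kdr, and overlapping intervals.

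The apelin pair was higher in capillary and venular than in arterial cells of the same library. Aplnr was at 258, 242, 215 and 145 CPM in capillary cells and 258, 227.9, 177 and 109.7 in venular ones, and at no more than 13.4 CPM in arterial cells. Of these 3 subtypes, Apln was highest in capillary cells, at 166, 153, 103 and 99.9 CPM, and was at 64.9, 82.3, 35.5 and 23.9 CPM in venular cells. In arterial cells it was at 22.5 CPM (15.8 to 31.0) in the unamputated library, close to the venular level at 28 dpa, and at 9.75, 4.53 and 9.96 CPM afterwards, from 9, 2 and 3 UMIs, the last with an interval of 2.05 to 29.1 CPM that includes the venular level. At 28 dpa the venular log2 ratios were -1.40 (-1.86 to -0.97) for Apln and -1.23 (-1.45 to -1.02) for Aplnr, and the capillary ones -0.72 (-1.05 to -0.42) and -0.82 (-1.09 to -0.56). The capillary mix differed as well: 1 of the 3 capillary subclusters held 110 of 495 capillary cells in the unamputated library and 132 of 195 at 28 dpa, and Apln was at 89.1 and 52.4 CPM in it. In the other 2, with 32 and 31 cells at 28 dpa, Apln was at 205 and 279 CPM in one and at 157 and 13.2 CPM in the other. Apln was therefore not lower at 28 dpa in every capillary subcluster. In venular cells 6.34% of all genes were past 2-fold at that time, and in capillary cells 11.3%. At 17 dpa 1 venular cell held 14 of the Apln UMIs, and without its subcluster the venular level was 29.0 CPM.

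Angpt2 differed in direction between subtypes and times. In capillary cells it was at 24.6 CPM in the unamputated library, and then at 55.3, 10.6 and 28.8 CPM, with log2 ratios of 1.13 (0.82 to 1.45) at 12 dpa and -1.14 (-1.98 to -0.38) at 17 dpa, where 2.55% and 4.41% of all genes were past 2-fold. Venular cells showed a different order: 20.04, 14.1, 53.4 and 58.5 CPM, with log2 ratios of -0.47 (-1.01 to 0.04), 1.37 (1.02 to 1.72) and 1.499 (1.14 to 1.85). At 17 dpa 2.73% of all genes were past 2-fold in venular cells. The venular mix differed as well: 1 subcluster held 202 of 694 venular cells in the unamputated library and 31 of 328 at 28 dpa. Angpt2 in it was at 5.59 CPM and, from 5 UMIs, 47.5 CPM. In another, of 191 and 160 cells, Angpt2 was at 27.3 (20.3 to 35.9) and 49.9 CPM (34.9 to 69.0), and at 82.4 CPM at 17 dpa. The part of this mix in the venular ratios was not tested. In arterial cells Angpt2 was at 12.8, 6.502, 6.80 and 3.32 CPM, from 21, 6, 3 and 1 UMIs, with a log2 ratio of -1.67 (-3.73 to 0.64) at 28 dpa. The stepwise order of the pooled class, from 20.5 to 43.7 CPM, was found in none of the 3 subtypes. A venular subcluster with stromal and mural leading genes held 14 Angpt2 UMIs in 6 cells at 28 dpa. Without it the venular level at 28 dpa was 52.5 CPM, a log2 ratio of 1.35 (0.97 to 1.72) at 28 dpa.

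**Figure D3:**
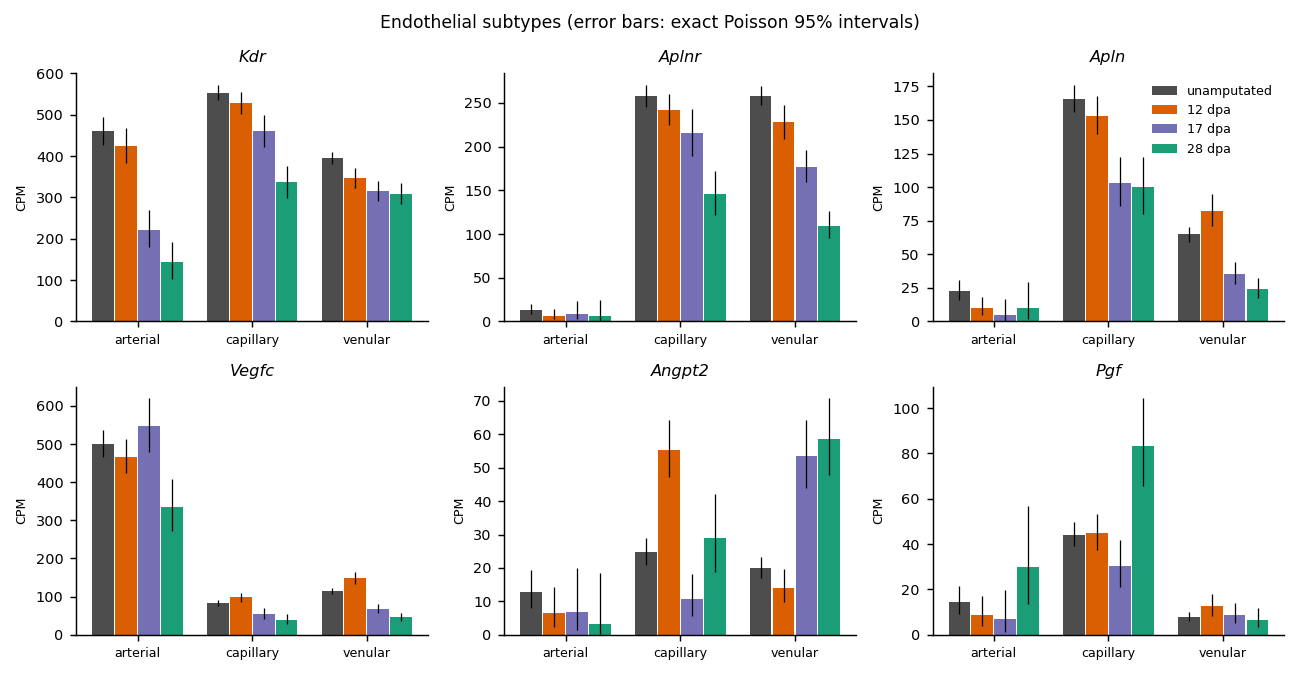
Level (CPM, vertical) of 6 genes in arterial, capillary and venular endothelial-like cells of each library (colours), with exact Poisson 95% intervals. Kdr in arterial cells is at 460 CPM in the unamputated library and 143 at 28 dpa, Vegfc is concentrated in arterial cells, and Angpt2 is highest at 12 dpa in capillary cells and at 17 and 28 dpa in venular cells.

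At 12 dpa 126 of the 164 capillary Angpt2 UMIs lay in 1 subcluster of 165, 100, 39 and 32 cells, led by Pgf, Prnd, Kit and Nox4. In it, Angpt2 was at 45.8 CPM (37.8 to 54.8) in the unamputated library and 118 CPM (98.2 to 140) at 12 dpa. Apln was at 205 CPM (188 to 223) and 267 CPM (237 to 300.3) there, and at 186 CPM (142 to 238) at 17 dpa and 279 CPM (213 to 359) at 28 dpa. In the unamputated and 12 dpa libraries Pgf was at 106 and 118, and Esm1, an endothelial gene known to respond to VEGF, at 20.3 and 212.3 CPM. The later levels were below those of 12 dpa: at 17 and 28 dpa, with 39 and 32 cells, Angpt2 was at 14.98 and 51.1 CPM from 5 and 11 UMIs, and Esm1 had 0 UMIs and 1 UMI. Esm1 was also higher in another capillary subcluster of the unamputated library, at 72.8 CPM (63.1 to 83.7). At 28 dpa, with 32 cells, Pgf was at 334 CPM (262 to 421) from 72 UMIs. Apln, Angpt2 and Esm1 are known as genes of endothelial tip cells, the cells that lead a vessel sprout.

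In the unamputated and 12 dpa libraries, larger shares of the cells with an Apln UMI than of those without had UMIs of Angpt2, Esm1 and Pgf. The shares pool all vessel subtypes, and these 4 genes were higher in capillary than in venular cells of both libraries. At 12 dpa capillary and venular levels were 153 and 82.3 CPM for Apln and 55.3 and 14.1 CPM for Angpt2. For Esm1 they were 100.7 and 2.91 CPM. The part of the subtype mix in the shares was not tested. Among thinned endothelial cells at 12 dpa, 10 of 98 cells with an Apln UMI also had an Angpt2 UMI, 10.2% (5.003 to 18.0), against 2.84% (1.69 to 4.46) of the 633 cells without. In the unamputated library the shares were 7.09% (3.45 to 12.7) and 2.85% (1.99 to 3.94). For Esm1 the shares were 14.3% (8.04 to 22.8) and 2.53% (1.45 to 4.07) at 12 dpa, and for Pgf 8.16% (3.59 to 15.4) and 2.53% (1.45 to 4.07). Tek, a gene of the quiescent vessel, went the other way in the unamputated library, in 39.0% (30.9 to 47.6) of cells with an Apln UMI and 53.3% (50.5 to 56.1) of those without; at 12 dpa the shares were 38.8% (29.1 to 49.1) and 49.9% (46.0 to 53.9), where the intervals overlapped. At 17 dpa the Tek shares were 54.3% (36.7 to 71.2) and 47.4% (42.8 to 52.1), and at 28 dpa 32.1% (15.9 to 52.4) and 46.3% (41.9 to 50.8), so cells with an Apln UMI had the higher Tek share at 17 dpa. At 12 dpa the intervals of cells with and without Apln did not overlap for Angpt2 and Esm1 and overlapped for Pgf. In the unamputated library they overlapped for Angpt2 and Esm1 and not for Pgf, at 8.51% (4.48 to 14.4) and 2.28% (1.52 to 3.27). At 17 and 28 dpa only 35 and 28 cells had an Apln UMI. Angpt2 was then in 5.71% (0.6997 to 19.2) and 10.7% (2.27 to 28.2) of them, against 6.25% and 6.16% of the cells without. Esm1 was in 0 of the 35 and 0 of the 28, which allows up to 10.0% and 12.3% (exact interval), against 1.72% and 1.39%. The intervals overlapped for Angpt2 and Esm1 at both times and for Pgf at 17 dpa. At 28 dpa those of Pgf did not, with 4 of 28 cells, 14.3% (4.03 to 32.7), and 1.79% (0.821 to 3.37) of the 503 others.

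Of 29 further genes of these pathways, 25, 25 and 24 had at least 5 CPM in vascular endothelial-like cells at 12, 17 and 28 dpa. At 12 dpa 1 was past 2-fold: Esm1, at 19.2 CPM in the unamputated library and 48.7, 16.6 and 10.3 afterwards, a log2 ratio of 1.30 (1.09 to 1.52). At 17 dpa 0 of 25 were. At 28 dpa 2 of 24 were, both lower. Over all genes 1.63%, 2.04% and 6.16% were past 2-fold at these times. Unc5b, a netrin receptor of endothelium, was at 33.1, 43.6, 20.3 and 14.9 CPM, and Vash1, an endothelial inhibitor of angiogenesis induced by VEGF, at 22.3, 20.1, 14.2 and 7.28 CPM. The median log2 ratio of the measured pathway genes was -0.14, -0.04 and -0.17. Nrp1, the co-receptor of VEGF-A, was at 500.4, 475, 547 and 400 CPM, and the lymphatic receptor gene Flt4, which binds VEGF-C, at 27.4, 34.9, 22.4 and 16.9 CPM.

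Lymphatic endothelial-like cells numbered 162, 159, 35 and 38, so only the unamputated and 12 dpa libraries could be compared. Kdr was at 505 and 457 CPM in them, Tek at 146 and 108, Pgf at 119 and 118 and Angpt2 at 66.5 and 61.0. Flt1 was higher at 12 dpa, at 2.71 CPM (6 UMIs) and 18.7 CPM (27 UMIs, in 3.14% of the cells), a log2 ratio of 2.41 (1.33 to 3.45). It was the 1 past 2-fold of the 6 genes that reached 5 CPM, where 4.92% of all genes were. The share of cells with a Flt1 UMI did not differ in this way after thinning, at 3 of 161 cells (1.86%) and 3 of 156 (1.92%). Apln and Aplnr had 0 UMIs in both libraries, which allows up to 1.36 and 2.08 CPM (3 UMIs). The lymphatic cells thus carried Kdr and Tek UMIs and none of the apelin pair in these libraries.

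Vegfa was read mainly from myeloid cells in the early libraries. Macrophage-like cells held 34.3%, 47.8%, 23.8% and 12.7% of all Vegfa UMIs, and their level was 139, 140, 69.9 and 20.6 CPM, with a log2 ratio of -2.69 (-2.88 to -2.50) at 28 dpa, where 10.8% of all genes were past 2-fold. This class joined 2 clusters in different proportions. Cluster 0, led by Ms4a7 and Cd300c2, held 1397, 958, 601 and 202 cells, and Vegfa was at 149, 143, 124 and 112 CPM in it. Cluster 3, led by F13a1, Pf4, Lyve1 and Folr2, held 171, 35, 530 and 1245 cells, with Vegfa at 46.2 CPM in the unamputated library, 9.91 at 17 dpa and 5.55 at 28 dpa. The 6.46-fold difference of the class thus compares mostly cluster 0 with mostly cluster 3. Within cluster 0 the levels at 28 dpa and in the unamputated library were 112 (95.9 to 129) and 149 (144 to 156) CPM.

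The most Vegfa per UMI was found in cluster 16, which stayed unnamed. Its leading genes were Ccrl2, Slc7a11, Il1b and Cxcl2, its closest class was neutrophil, and its cells were shallow, with medians of 1414 to 2404 UMIs. Vegfa was at 751 CPM (709 to 794) there in the unamputated library, and in the later libraries 262 (220 to 309), 480 (431 to 533) and 296 (235 to 370) CPM. All 3 later levels were below the unamputated one, though 26.6%, 16.1% and 32.3% of all genes were past 2-fold in this cluster. Markers of other cells moved too: in time order the 7 neutrophil markers summed to 87828, 44684, 102889 and 39978 CPM in it, and the 7 fibroblast markers to 790.5, 2999, 1286 and 2466 CPM. Their part in the Vegfa levels was not tested. Neutrophil-like cells proper were present in the unamputated and 17 dpa libraries, with 76.7 and 93.2 CPM of Vegfa. Cluster 2, an unnamed myeloid cluster led by Acp5, was at 72.8, 41.7, 27.7 and 19.4 CPM.

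**Figure D4:**
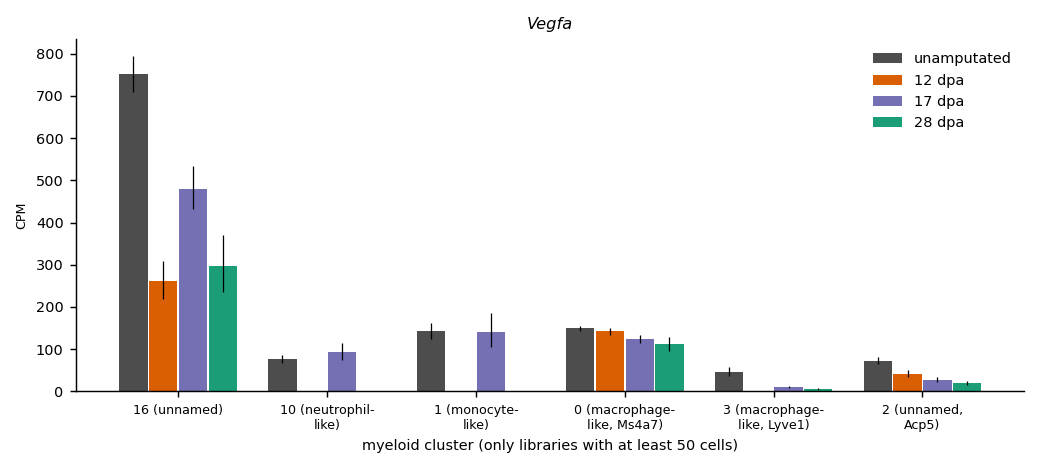
Level of Vegfa (CPM, vertical) in 6 myeloid clusters of each library (colours), with exact Poisson 95% intervals and only where a library held at least 50 cells. Cluster 16 is highest in every library, cluster 0 lies between 112 and 149 CPM, and clusters 3 and 2 are lower in each later library shown.

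At 28 dpa fibroblast-like cells held 21.8% of the Vegfa UMIs and cluster 17, an unnamed cluster led by Ccn3 and Clec3b and closest to fibroblasts, 27.7%, against 8.77% and 3.70% in the unamputated library. Their levels were not higher. Fibroblast-like cells were at 49.3, 35.7, 44.2 and 40.5 CPM of Vegfa, and cluster 17 at 46.7, 33.8, 25.4 and 32.7 CPM. Of the Vegfc UMIs, vascular endothelial-like cells held 57.0% and 52.9% in the unamputated and 12 dpa libraries and 20.2% and 19.0% at 17 and 28 dpa. Vegfc in fibroblast-like cells was at 43.8, 19.2, 49.4 and 34.7 CPM, the 12 dpa value resting on 29 UMIs in 129 cells.

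In fibroblast-like cells, 2 of 7 measured genes were past 2-fold at 12 dpa, 1 of 6 at 17 dpa and 1 of 6 at 28 dpa, where 7.05%, 2.53% and 6.38% of all genes were. Vegfc was lower and Flt1 higher at 12 dpa. The Flt1 value rested on 22 UMIs in 3 of 129 cells, 14.6 CPM against 1.52 in the unamputated library, and the 8 endothelial markers summed to 67.5 and 92.0 CPM in the unamputated and 12 dpa fibroblast-like cells. Their part in the Flt1 value was not tested. At 17 dpa Angpt1 was lower, and at 28 dpa Tek was higher, at 12.3, 11.9, 19.4 and 31.7 CPM in time order. The endothelial markers summed to 79.4 and 105 CPM in the 17 and 28 dpa fibroblast-like cells, and the 8 dissociation stress genes to 3351, 1852, 4940 and 6231 CPM in time order. Their part in the Tek value was not tested. Each of these counts was 0 under at least 1 other setting. Within cluster 15, the largest of the fibroblast-like clusters, Tek was at 21.9 CPM (18.4 to 25.9) in the unamputated library, 32.7 (29.4 to 36.4) at 17 dpa and 44.8 (39.8 to 50.3) at 28 dpa.

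Angpt1 (chr15:42424723-42676977, minus strand, overlapping the antisense gene Gm17473) was lower in fibroblast-like cells and cluster 17 after amputation, and in tenocyte-like cells at 17 and 28 dpa but not at 12 dpa. Fibroblast-like cells had 132 CPM in the unamputated library and 66.8, 64.4 and 70.1 CPM afterwards, with log2 ratios of -0.97, -1.02 and -0.90. The difference was present within a single cluster: in cluster 15, led by Gdf10 and Pi16, Angpt1 was at 171 CPM (161 to 182) in the unamputated library, 81.8 (76.5 to 87.4) at 17 dpa and 83.6 (76.7 to 91.0) at 28 dpa. Cluster 17 was at 76.0, 37.8, 36.4 and 23.4 CPM, and tenocyte-like cells at 39.7, 42.5, 20.2 and 10.5 CPM, with a log2 ratio of -1.82 (-2.26 to -1.40) at 28 dpa. Osteoblast-like cells were at 96.5, 68.5 and 43.5 CPM in the unamputated, 17 and 28 dpa libraries. Tenocyte-like cells held 62.4% of all Angpt1 UMIs at 12 dpa, where they numbered 1766.

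Mural cells, the pericytes and smooth muscle cells that wrap vessels, held both angiopoietins. Pericyte-like cells had 128, 84.7, 94.3 and 79.3 CPM of Angpt1 and 111, 115, 118 and 147 CPM of Angpt2. Angpt1 was lower and Angpt2 not lower at each later time, so that the ratio of Angpt2 to Angpt1 UMIs was 0.864 (0.781 to 0.955) in the unamputated library and 1.36 (1.18 to 1.56), 1.25 (1.05 to 1.49) and 1.86 (1.52 to 2.27) at 12, 17 and 28 dpa. In vascular smooth muscle-like cells the ratio was 1.01, 1.17, 0.953 and 1.27, and only the 28 dpa interval (1.12 to 1.44) lay above that of the unamputated library (0.921 to 1.10). Neither angiopoietin was past 2-fold in either mural class, where 4.06%, 2.37% and 7.39% of all genes were in pericyte-like cells and 3.75%, 1.84% and 4.39% in vascular smooth muscle-like cells. After thinning, 17.25%, 16.24%, 13.58% and 15.38% of pericyte-like cells had an Angpt1 UMI, and 17.25%, 22.97%, 19.06% and 23.82% an Angpt2 UMI. For both genes each later interval overlapped the unamputated one.

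Pgf, read from capillary, lymphatic and mural cells, was highest at 12 dpa in the mural ones. Pericyte-like cells were at 27.9 CPM (24.0 to 32.2) in the unamputated library, and then at 70.2 (62.3 to 78.9), 15.9 (11.3 to 21.8) and 28.0 (21.0 to 36.5) CPM. The 12 dpa level stood above the other 3, with a log2 ratio of 1.30 (1.03 to 1.57) past 2-fold. Vascular smooth muscle-like cells had 48.7, 65.0, 31.5 and 39.0 CPM, highest at the same time. The share of smooth muscle-like cells with a Pgf UMI did not follow this order after thinning, at 9.38%, 6.22%, 6.30% and 7.77%, lowest at 12 dpa, where the interval of 3.53% to 10.1% overlapped the unamputated one of 7.44% to 11.6%. The 12 dpa library is also the one with female cells. At 28 dpa cluster 17 held 42.6% of all Pgf UMIs, at 29.2 CPM, against 22.4 CPM in the unamputated library. Pgf was also past 2-fold in Schwann-like cells at 17 and 28 dpa, where 10% and 12.3% of all genes were, and in dendritic-like cells at all 3 times, where 14.4%, 9.4% and 21.1% were, from 4 to 68 UMIs a library. In tenocyte-like cells at 28 dpa its log2 ratio was 1.67, where 13.6% of all genes were past 2-fold. It stayed past 2-fold there in 9 of 11 alternative settings.

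Flt1 was also present in mural cells. It was at 267, 282, 209 and 225 CPM in pericyte-like cells and at 351, 418, 289 and 272 CPM in vascular smooth muscle-like cells. Kdr was at no more than 2.45 CPM in pericyte-like cells, with 0 UMIs in the unamputated and 28 dpa libraries. The share of Flt1 UMIs in vascular smooth muscle-like cells was 12.8% in the unamputated library and 28.4% at 28 dpa.

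**Figure D5:**
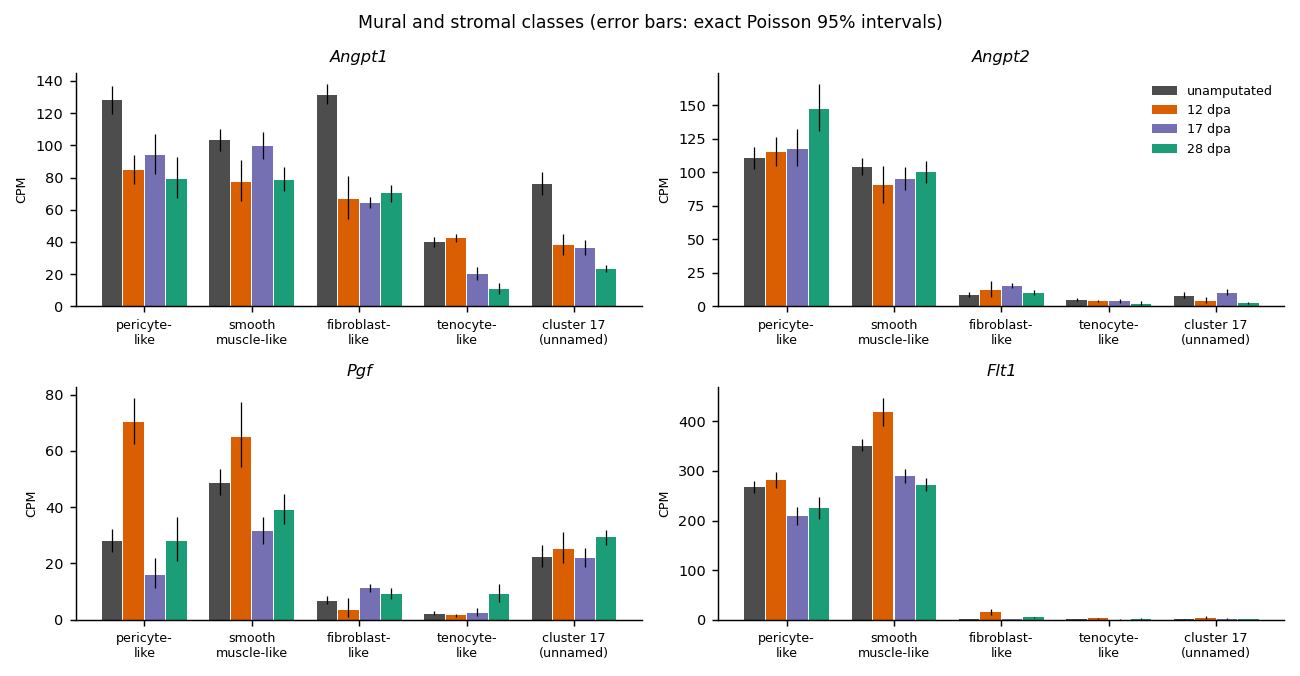
Level (CPM, vertical) of Angpt1, Angpt2, Pgf and Flt1 in mural and stromal classes of each library (colours), with exact Poisson 95% intervals. Angpt1 is lower after amputation in fibroblast-like cells and cluster 17, Pgf in pericyte-like cells is highest at 12 dpa, at 70.2 CPM, and Flt1 and Angpt2 are found mainly in the mural classes.

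Summed over all kept cells, the endothelial genes differed more than they did within cells of a class. Kdr was at 65.3, 52.4, 19.0 and 12.8 CPM of the library, Aplnr at 29.0, 19.9, 8.61 and 4.42 and Apln at 13.1, 11.2, 3.64 and 2.27. With the 15 classes present in every library held at their unamputated shares of UMIs, Kdr was at 63.4, 63.1, 48.4 and 41.6 CPM, Aplnr at 31.9, 28.7, 23.2 and 15.03 and Apln at 14.3, 16.3, 7.88 and 6.37. The 28 dpa levels of all 3 genes were closer to the unamputated ones at the fixed mix than at the measured one. Angpt2 was nearly level in both views, at 21.0, 17.3, 22.0 and 16.8 CPM and, at the fixed mix, 21.2, 21.8, 23.7 and 23.7 CPM.

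The genes whose levels were most like those of each of the 10 were sought over 72 sums of 1 class in 1 library, among 9096 genes. These sums share libraries and classes, so the correlations are descriptions. Kdr was most like Dipk2b (Pearson r of 0.94), Tie1 and Cdh5. Tek was most like Meox1, Fgd5 and Npr1 (0.91 for the first), and Aplnr like Gm32688, Sox17 and Gpihbp1 (0.93). Apln had Gm32688 (0.90), Tmem252 and Aplnr itself (0.85) as its nearest genes. Flt1 was nearest to Esam (0.91), Fabp4 and Gja4, and Angpt2 to Gucy1a1 (0.84), Gja4 and Gucy1b1. Angpt1 was nearest to Fap (0.87), Serping1 and Vstm4. Vegfa (Slc16a3, Ptgs2 and Lst1, 0.81 for the first), Vegfc (Htr2a, Mecom and Kcnc2, 0.82) and Pgf (Rras, Ccdc141 and Tax1bp3, 0.80) had the weaker matches.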

How the data were processed

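RNA was measured in 4 libraries of digit cells, 1 a group, prepared with 10x Chromium 3′ chemistry per the labels' protocols. The authors deposited filtered matrices of UMI counts, whole numbers per gene and barcode. Cell Ranger 7.1.0 and the build mm10 are named in the submitters' processing notes, and whether counting used strand or intronic reads is not given in the sources used here. The genes and lists were chosen with earlier results of these data known.

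Cells with at least 500 genes, 1000 UMIs and no more than 10% mitochondrial UMIs entered the analysis. Doublets were taken as the top Scrublet scores, at 0.8% per 1000 barcodes, and left out. Cells were clustered with scanpy 1.11.5 (2000 variable genes, 30 components, 15 neighbours, Leiden resolution 1), and endothelial cells again (1000 genes, 20 components, resolution 0.6). The 10 genes, the pathway list, sex-linked and mitochondrial genes were left out of clustering. Clusters were named from marker lists and stayed unnamed where shallow or led by another type's markers. UMIs were summed per class and library and divided by their total. On simulated counts for vascular endothelial-like cells with 200 genes changed 4-fold, 100% of these were recovered at 12 and 17 dpa and 99.5% at 28 dpa, and at most 0.0390% of unchanged genes were called. Both simulated libraries were Poisson draws from the unamputated profile, and the changed genes had at least 20 CPM. Differences between animals, libraries and cell mixes were left out. These shares therefore do not measure how reliable calls near 2-fold or at lower levels are.

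All 10 genes were named. Pathway genes were named when past 2-fold in vascular endothelial-like cells or, chosen after their values were seen, as receptors of the ligands described. For likeness, the 3 genes with the highest Pearson r of log2(CPM + 1) were taken, among genes of at least 50 CPM in 1 sum. Gene positions are those of GENCODE M21 on GRCm38, the mm10 build. Other filters, doublet handling, resolutions, naming, scaling, pseudocounts, thresholds and thinning were tried. Python 3.11.15, numpy 2.4.6 and scipy 1.17.1 were used.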

Additional observations from a re-analysis of the deposited data

Results flagged for a closer look

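These 3 patterns had values past 2-fold in opposite directions at different times or subtypes, and none of these differences was tested. Pgf in Schwann-like cells was at 22.2 CPM in the unamputated library, 16.4 at 12 dpa, 4.79 at 17 dpa and 79.1 at 28 dpa. Its log2 ratios were -2.00 (-3.37 to -0.75) at 17 dpa, from 4 UMIs, and 1.79 (1.31 to 2.26) at 28 dpa, from 68 UMIs in 177 cells, of which 18.1% had one. Pgf in dendritic-like cells was at 22.7, 56.4, 6.52 and 5.08 CPM, with log2 ratios of 1.28 (0.80 to 1.75), -1.66 (-2.76 to -0.65) and -1.96 (-3.36 to -0.70) in the later libraries, from 67, 7 and 4 UMIs. Angpt2 was higher than in the unamputated library in capillary endothelial-like cells at 12 dpa, with a log2 ratio of 1.13, and lower there at 17 dpa, at -1.14, while in venular endothelial-like cells it was higher at 17 dpa, at 1.37. The 17 dpa capillary value rests on 13 UMIs.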

How the results depend on the processing

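Ratios were recomputed only in vascular endothelial-like, fibroblast-like, macrophage-like, pericyte-like, vascular smooth muscle-like and tenocyte-like cells. In these classes no called ratio changed its sign under any alternative run. Of all recomputed ratios, called or not, 991 of 1090 kept theirs. Ratios in the endothelial subtypes and in lymphatic, Schwann-like and dendritic-like cells, including the patterns flagged above, were not recomputed. Of 1275 recomputed values 936 stayed within the spread allowed and 339 moved beyond it. In vascular endothelial-like cells at 28 dpa the count of genes past 2-fold was 2 to 4 under the other alternatives and 6 at a 1.5-fold threshold, where 19.0% of all genes passed. At that threshold 1 gene passed at 12 dpa and 2 at 17 dpa, where 9.15% and 8.03% of all genes did. The log2 ratio at 28 dpa ran from -1.27 to -1.07 for Apln, from -1.24 to -0.98 for Aplnr and from 0.65 to 1.22 for Angpt2, which was past 2-fold in 7 of 12 settings. In fibroblast-like cells the count at 12 dpa was 4 with the stricter filter, 4 with thinned cells, 4 at 1.5-fold, 1 at Leiden resolution 2 and 0 with each cell named alone, where 11.7%, 22.1%, 23.3%, 5.02% and 5.23% of all genes passed. At 17 dpa it was 4 at 1.5-fold, where 9.42% of all genes passed, and 0 without doublet removal, at resolution 2, with each cell named alone, with size factors and with a pseudocount of 5 CPM, where 1.195% to 3.19% did. At 28 dpa it was 2 with the looser filter, at resolution 2, at 1.5-fold and with no minimum CPM, where 10.9%, 10.1%, 20.1% and 4.77% passed, and 0 without doublet removal, where 3.75% did. The cause of these shifts was not tested. Size factors in place of UMI totals moved the median log2 ratio of genes of at least 50 CPM in vascular endothelial-like cells from -0.17, -0.08 and -0.15 to -0.08, -0.02 and -0.05. The ratios of 4 genes in macrophage-like cells at 12 dpa could not be computed at resolution 0.5, which left too few cells. No paired analysis was possible because each group holds 1 library. Depth limits values under about 5 CPM, and classes of fewer than 50 cells were not compared. This limit was not applied to the endothelial subclusters, some of which held 31 or 32 cells at 28 dpa.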

Other observations

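Angpt1 was also present in T or NK-like cells of the unamputated library, at 67.1 CPM from 97 UMIs in 276 cells, of which 10.5% had one. In the later libraries it was at 5.36 CPM (3 UMIs in 157 cells), 20.04 CPM (10 UMIs in 116 cells) and 38.5 CPM (8 UMIs in 77 cells). Of all genes, 23%, 22.8% and 35.2% were past 2-fold in T or NK-like cells at 12, 17 and 28 dpa. Among basal keratinocyte-like cells of the unamputated library 0.435% had an Angpt1 UMI. These values are given as measured, with no test.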
